A study of Mus musculus with 51 samples.

Results

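The 10 genes described here encode ligands, receptors and antagonists of the BMP pathway. They are the ligands *Bmp2*, *Bmp4* and *Bmp7*, the receptors *Bmpr1a* and *Bmpr2*, and the antagonists *Nog*, *Chrd*, *Fst*, *Grem1* and *Bmper*. They were taken by symbol, and all 10 were found among the 24538 genes listed in each of 9 expression tables. RNA-seq was performed on 18 samples of mouse embryonic stem cells (ES cells) and of mesoderm cells made from them. F1G4 wild-type (WT) cells were sequenced as ES cell aggregates before differentiation (the ES state) and after 1, 2 and 3 days of it, with 2 samples per stage. Lines without *Eomes* (*Eomes* KO), without *T* (*T* KO) or without both (dKO) were made from F1G4 cells by CRISPR/Cas9 deletion and sequenced on days 2 and 3. A *Smad4* KO line of 129S/SvEvxC57BL/6 background and the WT line it came from, which carries conditional *Smad4* alleles, were sequenced on days 1 and 2. Every KO group, and each *Smad4*-line WT group, is 1 sample. The KO lines were grown from single cell clones, and the dKO line was derived from the *Eomes* KO line.

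All differentiating cells, WT and KO, received 20 ng/ml mouse recombinant Bmp4 protein, renewed daily, and no differentiated group without Bmp4 was analysed here. The added protein is not seen by RNA-seq, so *Bmp4* values below are transcripts of the cells' own gene. Expression is given in FPKM, the number of sequenced fragments scaled to transcript length and to sequencing depth, so that levels of different genes can be set side by side. Each F1G4 WT value is the average of 2 libraries, and each other value comes from 1 library. For days 2 and 3 the 2 WT libraries were separated by comparing 4 tables that weight them differently, and their values are given beside the deposited average. Genes reaching beyond FPKM 1 in either group were examined in a comparison, and a gene was called higher or lower if its log2 ratio passed 1 or −1. This rule holds no test. Tests were run with limma on the single libraries. Each lone library, KO or *Smad4*-line WT, is assumed to vary like the pairs of F1G4 WT libraries. These p-values measure only the spread between libraries.

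BMPs are secreted dimers that bring type I receptors, such as the product of *Bmpr1a*, and type II receptors, such as the product of *Bmpr2*, into a common complex. The type II receptor phosphorylates the type I receptor, which phosphorylates Smad1, Smad5 and Smad9, and these enter the nucleus with Smad4. Noggin, Chordin, Gremlin 1 and Follistatin bind ligands outside the cell, and Follistatin binds activins more tightly than BMPs. Bmper can restrain or favour BMP signalling depending on its level. In the gastrulating embryo Bmp4 from the extra-embryonic ectoderm acts on the posterior epiblast, where mesoderm forms, while Noggin and Chordin are made by the node and its derivatives.

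*Fst* was the gene of the set that changed most. It lies on chr13:114452262-114458989 (GRCm38). Its FPKM rose from 1.18 in ES cells to 174 on day 3 in WT cells, and on day 3 it stood at 2.35 in *Eomes* KO, 3.80 in *T* KO and 8.27 in dKO cells. *Bmp4* fell 22.9-fold from the ES state to day 1 and rose 4.94-fold from day 2 to day 3. *Bmpr1a* and *Bmpr2* were expressed at every stage and were called in no comparison. *Bmp2*, *Chrd*, *Grem1* and *Bmper* never exceeded FPKM 1 in any of the 20 columns of the 9 tables.

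Sequence upstream of an annotated start was at hand for 6 of the 10 genes. It is shown for *Bmp4*, *Bmpr1a* and *Bmpr2*, the genes among them that exceeded FPKM 1. They set side by side a ligand that switched between stages and the receptors that did not. Each is the 250 bases before a RefSeq start in GRCm38.p6, written 5′ to 3′ on the strand of the gene, and none overlaps an exon of its gene. They lie at chr14:46390670-46390919 (minus strand, *Bmp4*), chr14:34502547-34502796 (minus strand, *Bmpr1a*) and chr1:59764029-59764278 (plus strand, *Bmpr2*). The *Bmpr1a* window lies within the annotated span of its gene (chr14:34411061-34503336), so the start used there is not the outermost one. Capitals mark GGCGCC, a GC-rich element described for Smad1 and Smad5.
Bmp4: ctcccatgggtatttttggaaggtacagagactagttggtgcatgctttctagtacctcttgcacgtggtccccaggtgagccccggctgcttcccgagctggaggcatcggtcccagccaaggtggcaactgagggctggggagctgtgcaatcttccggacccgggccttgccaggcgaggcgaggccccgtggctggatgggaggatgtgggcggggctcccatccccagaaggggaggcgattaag
Bmpr1a: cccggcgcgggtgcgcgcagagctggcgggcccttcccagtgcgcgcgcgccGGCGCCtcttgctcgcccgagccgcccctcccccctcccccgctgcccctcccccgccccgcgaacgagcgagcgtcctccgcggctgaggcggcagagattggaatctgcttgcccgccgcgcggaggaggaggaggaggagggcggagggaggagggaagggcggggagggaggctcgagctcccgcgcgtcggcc
Bmpr2: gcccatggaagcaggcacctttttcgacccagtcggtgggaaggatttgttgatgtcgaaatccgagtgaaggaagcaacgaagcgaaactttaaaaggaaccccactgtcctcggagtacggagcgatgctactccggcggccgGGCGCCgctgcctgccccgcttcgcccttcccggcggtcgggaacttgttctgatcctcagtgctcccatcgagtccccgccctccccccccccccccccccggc

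GGCGCC lay 198 to 193 bases before the start in *Bmpr1a* and 105 to 100 bases before it in *Bmpr2*, and it was not present in this window of *Bmp4*. Of 32851 promoter windows of the same length, 9.59% held it. This share was not matched for GC content, which was 63.2% in *Bmp4*, 78.8% in *Bmpr1a* and 64% in *Bmpr2*. The windows of *Chrd*, *Grem1* and *Bmper* had 78%, 72% and 71.6%. *Chrd* and *Grem1* also held GGCGCC, at 203 to 198 and 78 to 73 bases before the start used, and *Bmper* did not. The *Chrd* window (chr16:20732877-20733126) also lies within the annotated span of its gene (chr16:20731425-20742384). The other motifs searched on both strands were the T-box element AGGTGTGA (in 1.12% of all windows), its shorter core GGTGTG, which is part of it (16.3%), the Smad palindrome GTCTAGAC (0.167%), the TCF core CTTTGAT (3.21%) and the FoxH1 core AATCCAC (2.1%). None of these was found in the 6 windows, which says only that these letters are not within 250 bases before the starts used.

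**Figure D1:**
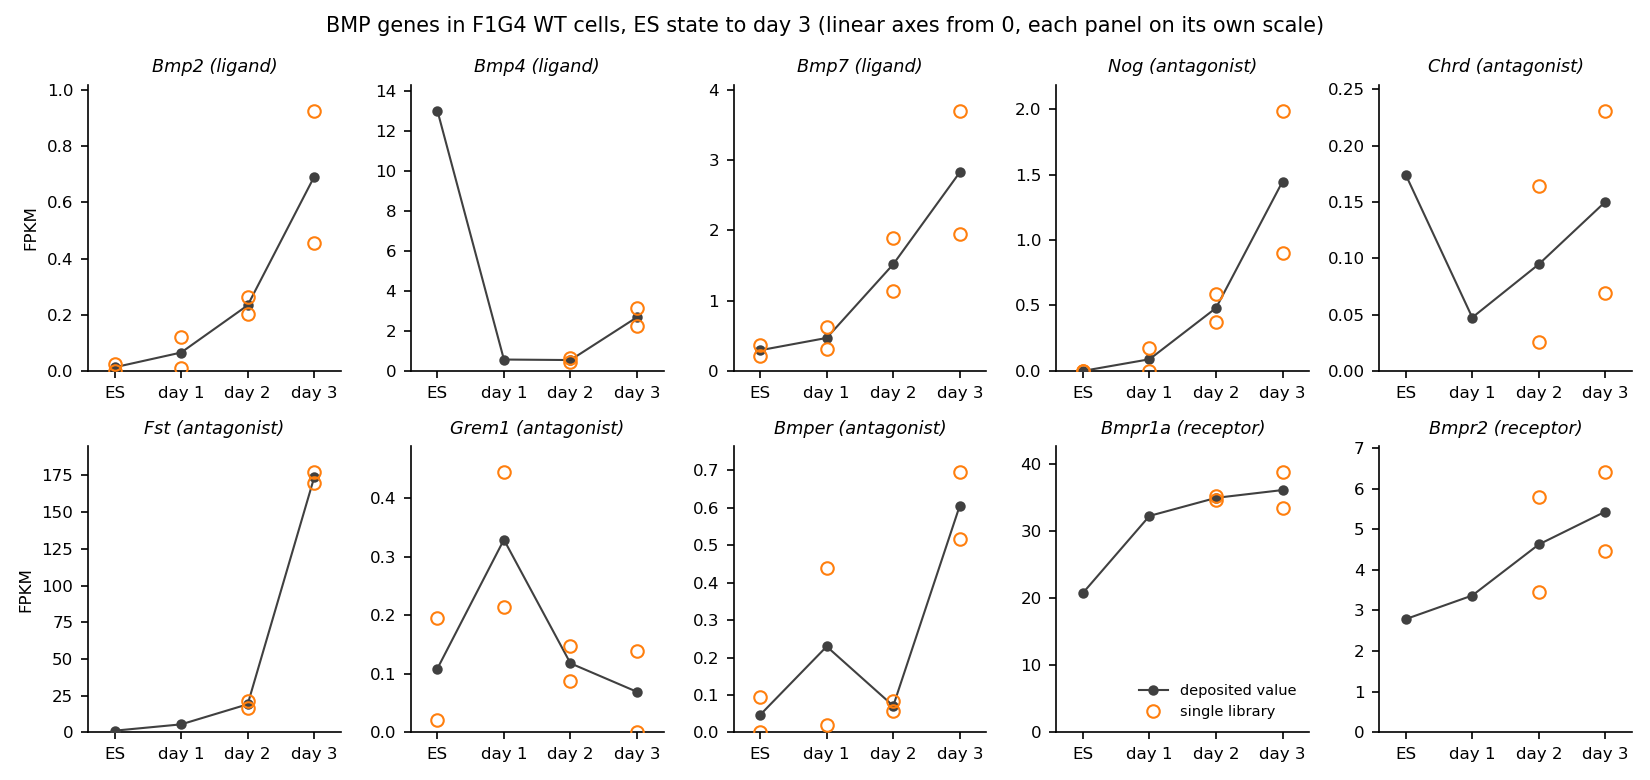
FPKM of the 10 genes at the 4 stages of F1G4 WT cells, each panel on its own linear axis from 0. Filled points joined by a line are the deposited values, and open circles are single libraries where they could be separated. *Fst* climbs to 174 on day 3 with both libraries close together, *Bmp4* drops from 13.0 to 0.569, and *Bmp7*, *Bmp2* and *Nog* rise with their libraries further apart.

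The time course asks how the pathway's own genes change while Bmp4 turns ES cells into cardiac mesoderm. The summed FPKM of 8 pluripotency markers was 2017 in ES cells and 639 on day 3, with 8 and 7 of them above FPKM 1. The 10 markers of nascent mesoderm summed to 15.6 and 478, with 1 and 9 above FPKM 1. *Nodal* made up 14.1 of the sum in ES cells, and *T* 320 of that on day 3. From the ES state to day 1, 2 of the 4 examined genes were called, against 13.5% of all 11028 genes examined. From day 1 to day 2 it was 2 of 4 (11.3% of all genes), from day 2 to day 3 it was 3 of 6 (10.2%), and from the ES state to day 3 it was 4 of 6 (31.1%).

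Among the ligands, *Bmp4* stood at FPKM 13.0 in ES cells, dropped to 0.569 by day 1, and read 0.543 on day 2 and 2.68 on day 3. The fall to day 1 was −4.52 and the rise from day 2 to day 3 was 2.30 on the log2 scale, so on day 3 it remained 4.85-fold below the ES state. The 2 libraries read 0.636 and 0.450 on day 2 and 3.13 and 2.24 on day 3, and the days did not overlap. In limma the day 2 to day 3 change of *Bmp4* was 2.11 ± 0.42 (log2, SE), with an adjusted p of 0.176 (unadjusted p = 0.00336).

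*Bmp7* rose in steps over the 4 stages, reading 0.294, 0.470, 1.52 and 2.83. It was called higher from day 1 to day 2 (log2 1.69) and from the ES state to day 3 (3.26). Its libraries were far apart, at 1.90 and 1.14 on day 2 and 3.71 and 1.95 on day 3, so that the day 3 libraries differed by 1.90-fold while the days differed by 1.86-fold. The log2 difference between days 2 and 3 was 0.83 in limma, with a 95% interval from −0.34 to 1.99.

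*Bmp2* had the lowest level of the ligands at every stage. Its FPKM over the 4 stages was 0.0129, 0.0655, 0.234 and 0.692, which is 0 and 2 fragments in the ES libraries and 96 and 43 fragments in those of day 3. Every step was upward, and no step was called because no value passed FPKM 1. The order of the ligands changed over the stages. *Bmp4* was the highest ligand in ES cells. On day 2 *Bmp7* was the highest, with both libraries above those of *Bmp4*, and on day 3 the *Bmp7* and *Bmp4* libraries overlapped.

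The receptors changed little. *Bmpr1a*, the type I receptor, stood at 20.8, 32.2, 34.9 and 36.1 over the 4 stages, with day 2 libraries at 35.3 and 34.6 and day 3 libraries at 33.4 and 38.8. *Bmpr2*, the type II receptor, stood at 2.79, 3.37, 4.62 and 5.43, with libraries at 3.46 and 5.78 on day 2 and 4.46 and 6.41 on day 3. The libraries of days 2 and 3 overlapped for both receptors. The largest log2 differences, from the ES state to day 3, were 0.80 for *Bmpr1a* and 0.96 for *Bmpr2*. The value for *Bmpr2* lies just under the threshold of 1 and passed it when the columns were scaled to the same median (1.03). The interval of the limma difference between days 2 and 3 ran from −0.38 to 0.47 for *Bmpr1a* and from −0.69 to 1.18 for *Bmpr2*.

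Among the antagonists, *Fst* rose at every step. Its FPKM over the 4 stages was 1.18, 5.49, 19.2 and 174. The log2 steps were 2.21, 1.80 and 3.18, the last a 9.07-fold rise, and over the whole course *Fst* rose 147-fold. The libraries read 16.9 and 21.5 on day 2 and 177 and 170 on day 3, so the day 3 libraries differed by 1.04-fold while the days differed by 9.07-fold. In limma the rise from day 2 to day 3 was 3.18 ± 0.21 (log2, SE). Its unadjusted p was 1.6e-05 and its adjusted p 0.0755, and limma called 0 of 12477 genes in this comparison (0%).

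*Nog* had no fragment in either ES library and read 0.0891, 0.481 and 1.45 at the later stages. Against the limit of 3 fragments per library, the day 3 value was at least 20.2-fold higher than in ES cells. The day 3 libraries held 111 and 46 fragments, FPKM 1.99 and 0.905, and both lay above the day 2 libraries (0.585 and 0.377). *Nog* was called higher from day 2 to day 3 (log2 1.59).

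*Bmper* stood at 0.0469, 0.230, 0.0708 and 0.606. The day 1 average hides an uneven pair of libraries, with 2 fragments in one and 39 in the other, whereas the day 3 libraries held 57 and 70 fragments (FPKM 0.516 and 0.696) and the day 2 libraries 6 and 8. *Chrd* did not exceed 0.302 in any column. Its WT libraries were 0.164 and 0.0254 on day 2 and 0.231 and 0.0692 on day 3, so no difference between these days was detectable at this depth. *Chrd* was highest in ES cells among these stages, at 0.174. *Grem1* was highest on day 1, at 0.329 from 9 and 17 fragments, and its day 3 WT libraries held 0 and 6 fragments.

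The KO comparisons ask which of these genes depend on the transcription factors that direct mesoderm formation. On day 2, 1 of 4 examined genes was called in *Eomes* KO (7.52% of all genes), 0 of 4 in *T* KO (15.6%) and 0 of 4 in dKO cells (7.99%). On day 3 it was 2 of 6 in *Eomes* KO (16.4%), 3 of 6 in *T* KO (6.04%) and 3 of 6 in dKO cells (11%). The 3 KO lines were compared with the same WT libraries on each day, so their differences are not independent of each other. The targeted genes were checked first. *Eomes* was 0.276 in *Eomes* KO and 0.346 in dKO against 20.3 and 20.2 in WT cells on day 3, and *T* was 3.00 in *T* KO and 1.93 in dKO against 323 and 332. On day 2 the libraries labelled *Eomes* KO and *T* KO still held *Eomes* at 2.42 (9.42 in WT) and *T* at 6.64 (44.8 in WT).

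**Figure D2:**
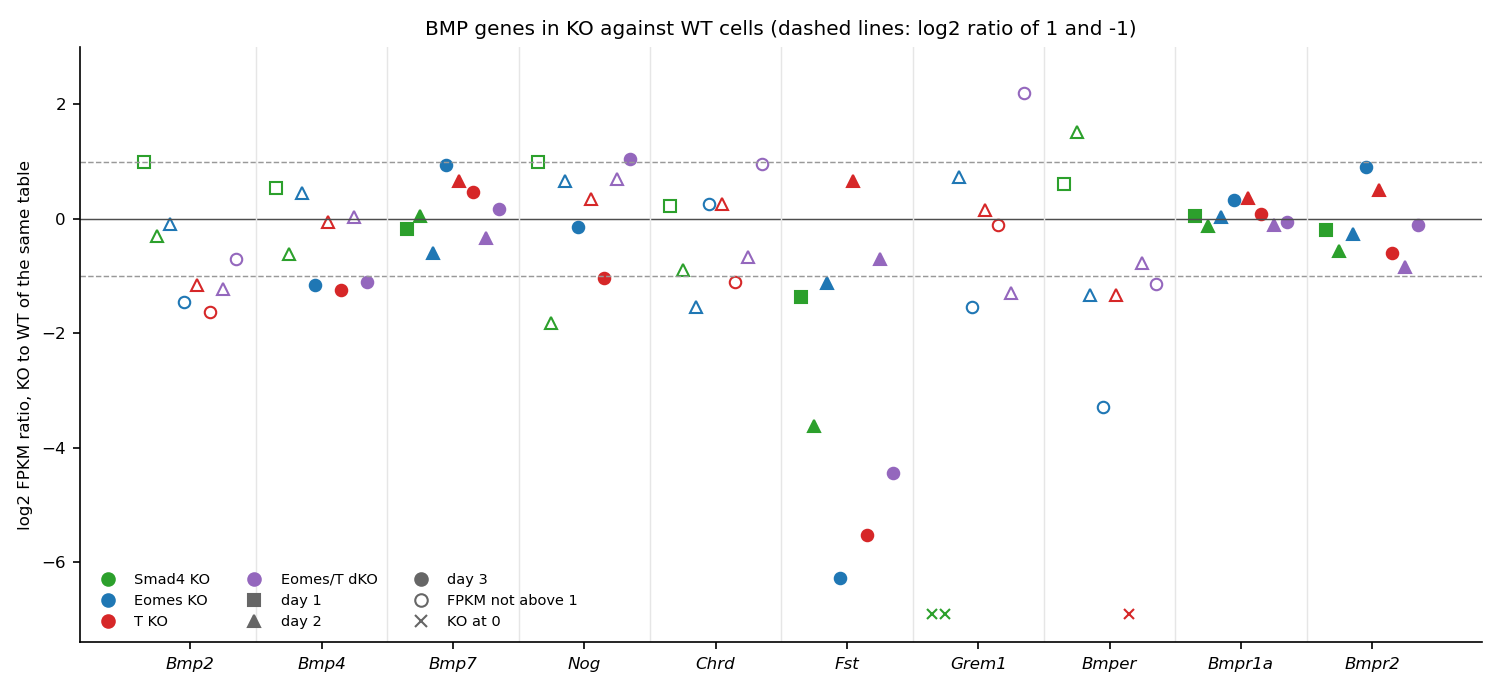
Log2 FPKM ratio of each KO to the WT of its own table for the 10 genes, with 8 comparisons per gene, coloured by line and shaped by day. Open symbols mark genes not above FPKM 1, crosses mark KO values of 0, and dashed lines mark ratios of 1 and −1. The *Fst* points of day 3 lie at −6.27, −5.53 and −4.45, below the points of all other genes that had FPKM above 1, while the *Bmpr1a* points stay between −0.12 and 0.36.

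*Fst* was lower on day 3 in all 3 KO lines. *Eomes* KO cells had an FPKM of 2.35 against 181 in WT cells of the same table, which is 77.3-fold lower. *T* KO cells had 3.80 against 175, 46.1-fold lower, and dKO cells 8.27 against 181, 21.8-fold lower. Set on the scale of the time course, the KO libraries lay 75.7-, 45.2- and 21.4-fold below the lower of the 2 WT libraries.

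Among the 6 genes of the set above FPKM 1, *Fst* alone was beyond 2-fold from the nearer WT library on day 3, in each KO line. Of all genes examined, 10.6% (*Eomes* KO), 3.62% (*T* KO) and 7.08% (dKO) were that far away. In limma the log2 difference was −6.21 ± 0.26 (SE) with an adjusted p of 0.00646 in *Eomes* KO, −5.49 with 0.0164 in *T* KO and −4.43 with 0.025 in dKO cells. Limma called 0.136%, 0.0561% and 0.0882% of all genes in these comparisons, and *Fst* was the only gene of the set among them. With genes down to FPKM 0.1 in the fit (16727 genes), the adjusted p of *Fst* in limma was 0.015 in *Eomes* KO, 0.0578 in *T* KO and 0.0282 in dKO cells. That fit called 1.47%, 0% and 1.04% of all genes on day 3, 0.963%, 1.82% and 0.717% on day 2, and 1.42% and 0% in *Smad4* KO on days 1 and 2.

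The day 3 libraries also differed in mesoderm markers. Summed over 10 nascent mesoderm markers, which include *T* and *Eomes*, FPKM was 478 to 499 in the WT columns. The sum was 17.6 in *Eomes* KO, 69.8 in *T* KO and 40.9 in dKO cells. *T* alone made up 320 to 334 of the sum in WT cells, and 4.46, 3.00 and 1.93 in the same order of KO lines. Of the 10 markers, 9 exceeded FPKM 1 in WT cells and 4, 5 and 4 did in the KO lines, and their part in the *Fst* result was not tested. In bulk RNA, fewer cells of a type and less RNA per cell cannot be told apart.

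On day 2 the lines did not move *Fst* together. In *Eomes* KO it was 8.75 against 19 in WT cells (log2 −1.12), below both WT libraries and called lower. In dKO it was 11.7 against 18.9 (−0.70), also below both libraries, and in *T* KO it was 31.2 against 19.7 (0.66), above both libraries. Limma gave adjusted p values of 0.741, 0.589 and 0.293 for *Fst* in these lines, so none of these day 2 differences passed. Limma called 0.00801% of all genes in *Eomes* KO, 0.016% in dKO and 1.51% in *T* KO on that day. From day 2 to day 3 the value went from 19.2 to 174 in WT columns, from 8.75 to 2.35 in *Eomes* KO, from 31.2 to 3.80 in *T* KO and from 11.7 to 8.27 in dKO columns, each KO day being normalized in its own table.

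**Figure D3:**
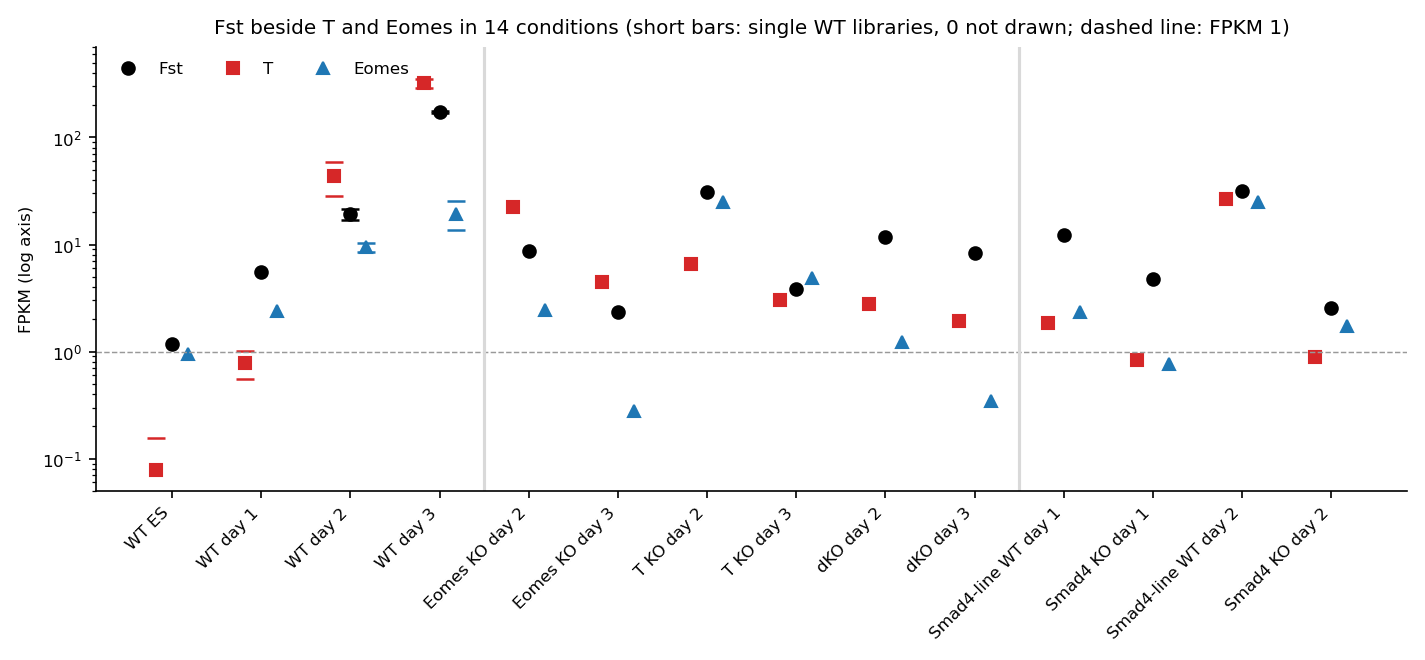
FPKM of *Fst*, *T* and *Eomes* in 14 conditions on a log axis, with WT values from the time course, short bars for single WT libraries (a library at 0 is not drawn) and a dashed line at FPKM 1. *Fst* and *T* are high together on WT day 3 (174 and 320) and low together in the day 3 KO columns, while *T* KO cells on day 2 combine *T* at 6.64 with *Eomes* at 24.7 and *Fst* at 31.2.

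*Bmp4* was lower in each KO line on day 3, by a smaller margin than *Fst*. It was 1.25 in *Eomes* KO, 1.14 in *T* KO and 1.30 in dKO cells against 2.71 to 2.80 in WT cells of the same tables, with log2 ratios of −1.16, −1.25 and −1.11. All 3 KO libraries lay below both WT libraries, but none by 2-fold. Against the lower WT library alone the ratios were −0.90, −0.99 and −0.85 and *Bmp4* was no longer called. Limma gave adjusted p values of 0.349, 1.0 and 0.576 for *Bmp4*. On day 2, *Bmp4* was 0.737, 0.537 and 0.550 in the same order of lines against 0.538 to 0.561 in WT cells.

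*Bmp7* did not follow *Bmp4*. On day 3 it was 5.67 in *Eomes* KO, 3.94 in *T* KO and 3.30 in dKO cells against 2.85 to 2.95 in WT cells. The first 2 lay above both WT libraries and dKO between them, and none was called. *Eomes* KO came nearest, with a log2 ratio of 0.94 that reached 1.00 with columns scaled to the same median. Against the lower WT library alone, *Bmp7* passed the threshold in *Eomes* KO (1.48) and *T* KO (1.00) on day 3, and against the higher library it did not (0.55 and 0.074). The limma interval for *Bmp7* in *Eomes* KO ran from −0.44 to 2.41 on the log2 scale. On day 2 it was 1.00, 2.47 and 1.19 in the same order of lines against 1.50 to 1.57 in WT cells, and in *T* KO it passed the threshold against the lower WT library alone (1.07).

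*Bmp2* was below both WT libraries in all 3 KO lines on day 3. It was 0.264 in *Eomes* KO, 0.225 in *T* KO and 0.443 in dKO cells, from 23, 30 and 32 fragments, against 0.697 to 0.721 in WT cells. The log2 ratios were −1.45, −1.63 and −0.69, at levels the rule leaves out. The 2 WT libraries differed by 2.03-fold in *Bmp2* on that day, which is about as large as the differences from the lower library, 1.80-, 2.05- and 1.07-fold.

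The receptors were called in no KO line. *Bmpr1a* ranged from 31.9 to 47.5 over the 6 F1G4 KO columns, and the nearest to a change was *T* KO on day 2, with 46.4 against 36.0 in WT cells (log2 0.36). The limma interval of that difference ran from −0.16 to 0.88. *Bmpr2* spread more widely. It was 10.6 in *Eomes* KO on day 3 against 5.68 (log2 0.90) and 2.55 in dKO on day 2 against 4.57 (−0.84), with limma intervals from −0.23 to 2.06 and from −1.92 to 0.37. Against 1 WT library alone both passed the threshold, at 1.19 against the lower library and −1.17 against the higher, while against the other library they were 0.67 and −0.43. In *T* KO it was 6.71 against 4.76 on day 2 and 3.64 against 5.49 on day 3.

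The remaining antagonists moved apart between lines. *Nog* on day 3 was 3.11 in dKO against 1.50 in WT cells (log2 1.05, called higher), 0.709 in *T* KO against 1.46 (−1.04, called lower) and 1.36 in *Eomes* KO against 1.51. These rest on 121, 51 and 64 fragments. The WT libraries differed by 2.2-fold in *Nog*, as much as either call, and each call was lost against the nearer WT library alone (0.59 and −0.36). In limma the adjusted p of *Nog* was 0.623 in dKO and 1.0 in *T* KO.

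*Bmper* on day 3 fell below both WT libraries in all 3 lines, at levels under FPKM 1. *T* KO held 0 fragments, *Eomes* KO 6 and dKO 22, against 57 and 70 in the WT libraries. *T* KO was thus at least 29.0-fold lower than WT and *Eomes* KO 9.81-fold lower (0.0646 against 0.634). With genes down to FPKM 0.1 in the fit, limma gave *Bmper* a log2 difference of −2.11 in *Eomes* KO (adjusted p = 0.114), −2.81 in *T* KO (0.16) and −0.90 in dKO cells (0.402). These differences carry a pseudocount of 0.1, which understates the change of so low a gene.

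*Chrd* and *Grem1* stayed low in all KO columns. *Chrd* ranged from 0.0323 to 0.302, the highest value being that of dKO on day 3, above WT libraries of 0.0692 and 0.231. *Grem1* reached its highest KO value in dKO on day 3, 0.332 from 11 fragments, above WT libraries of 0 and 6 fragments. Counted over the genes above FPKM 1, 5 of 6, 5 of 6 and 3 of 6 lay outside both WT libraries on day 3 in *Eomes* KO, *T* KO and dKO, where 76.5%, 60.3% and 71.9% of all genes did. These shares are near the background, so lying outside 2 libraries says little by itself. On day 2 it was 3 of 4, 4 of 4 and 3 of 4, against 69.4%, 79.1% and 75% of all genes. In *T* KO all 4 lay above both WT libraries, as 39% of all genes did. None of the 4 was then beyond 2-fold from the nearer WT library, where 4.69%, 10.3% and 4.55% of all genes were.

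In dKO cells on day 3, where *Nog* and *Grem1* were highest, 12 fibroblast markers summed to 91.9 against 22.4 in WT cells. *Acta2* made up 80.1 of this, and *Lum* (0.0476), *Dcn* (0.157) and *Col1a1* (0.525) were near 0, so 3 of the 12 markers exceeded FPKM 1 in dKO as in WT cells. In *Eomes* KO the sum was 62.7, with *Acta2* at 35.9. The part of these markers in the *Nog* and *Grem1* values was not tested.

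The *Smad4* comparison asks which genes need Smad-dependent transcription in cells given Bmp4. *Smad4* itself was not lowered, at 39.4 in KO against 33.8 in WT cells on day 1 and 46.8 against 39.3 on day 2. The study deleted the first exon, and a gene-level FPKM over the whole transcript does not check that deletion. The libraries are called by their labels here. Each group is 1 library and no WT pair exists in this line. The limma errors, intervals and p-values below therefore rest on the spread of the F1G4 WT pairs of days 2 and 3. Of the 4 genes examined, 1 was called on day 1 (4.77% of all genes) and 1 on day 2 (5.77%), and both times it was *Fst*.

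*Fst* was 4.77 in *Smad4* KO against 12.3 in WT cells on day 1 (log2 −1.37) and 2.57 against 31.5 on day 2 (−3.61), which is 2.58- and 12.2-fold lower. While WT cells of this line gained *Fst* between the days, KO cells did not. In limma the day 2 difference was −3.56 ± 0.30 (log2, SE) with an unadjusted p of 5.2e-05 and an adjusted p of 0.162, and 0.016% of all genes passed. On day 1 the adjusted p of *Fst* in limma was 1.0, with 0% of genes passing (unadjusted p = 0.00559). On day 2 the nascent mesoderm markers summed to 6.64 in KO and 123 in WT cells, and 9 neuroectoderm markers to 192 and 66.1. The neuroectoderm list includes *Sox2*, which is also among the pluripotency markers, and it summed to 263 in F1G4 ES cells. Of its 9 markers, 4 exceeded FPKM 1 in KO and 2 in WT cells on day 2. The part of both marker lists in the *Fst* values was not tested.

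None of the ligands was called between *Smad4* KO and WT cells, which with 1 library per group does not show that they were equal. *Bmp7* was 1.30 in KO and 1.46 in WT on day 1, and 2.09 and 2.02 on day 2. *Bmp4* was 0.447 and 0.309 on day 1, and 0.534 and 0.813 on day 2. The limma interval for *Bmp4* on day 2 ran from −2.02 to 0.97 on the log2 scale, and on day 1 from −1.07 to 1.92, and a 2-fold fall lies within both intervals. *Bmp2* stood at 0.376 in KO and 0.190 in WT on day 1, from 32 and 16 fragments, and at 0.0974 and 0.119 on day 2.

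*Bmpr1a* was 30.6 and 29.5 on day 1 and 34.9 and 37.9 on day 2 in *Smad4* KO and WT cells, and *Bmpr2* was 2.55 and 2.91, then 3.66 and 5.39. *Nog* and *Bmper* went opposite ways on day 2, both under FPKM 1. *Nog* was 0.271 in KO against 0.960 in WT cells (18 and 65 fragments), and *Bmper* 0.342 against 0.119 (45 and 16 fragments). In limma the unadjusted p was 0.0942 for *Nog* and, with genes down to FPKM 0.1, 0.0371 for *Bmper*, and neither passed after adjustment (1.0 and 0.972). *Grem1* had 0 fragments in KO cells on both days.

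The WT cells of both lines give a scale for differences between lines that were not knocked out, with the strain, the conditional *Smad4* alleles and the separate normalization of the tables included. *Fst* was 12.3 in the *Smad4*-line WT and 5.49 in F1G4 WT cells on day 1, and 31.5 and 19.2 on day 2. *Bmp7* was 1.46 against 0.470 on day 1 and 2.02 against 1.52 on day 2, and *Nog* 0.960 against 0.481 on day 2. The receptors were close, with *Bmpr1a* at 29.5 and 32.2 on day 1. The fall of *Fst* in *Smad4* KO on day 1, 2.58-fold, is about the size of this difference between lines, and the fall on day 2 is larger.

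**Figure D4:**
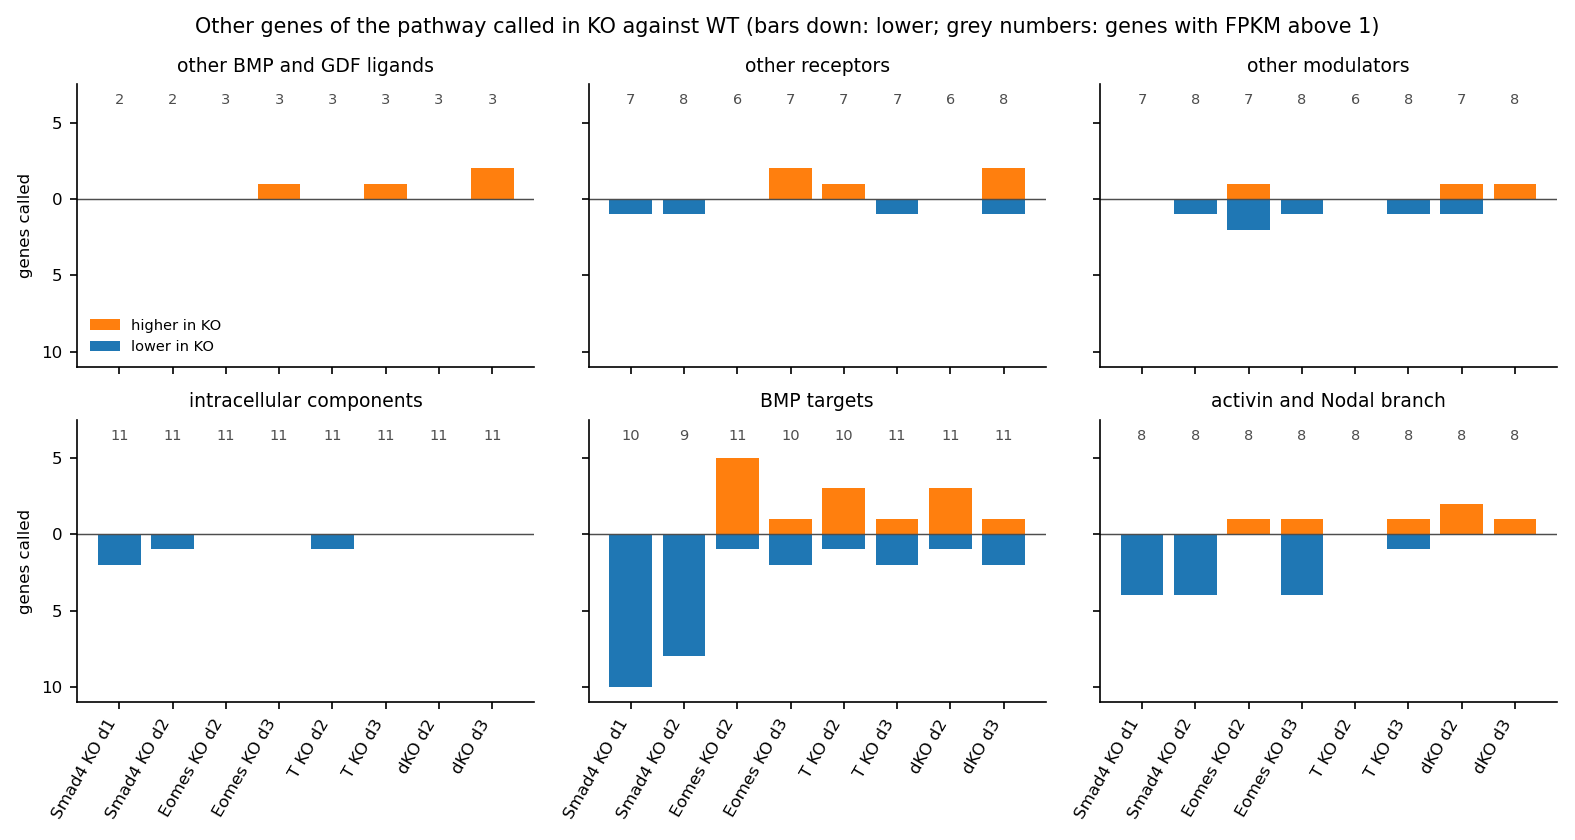
Number of genes called higher (bars up) and lower (bars down) in 8 comparisons of KO with WT cells for 6 lists of other pathway genes, with the number of genes above FPKM 1 in grey. The targets of BMP signalling stand out in *Smad4* KO cells with 10 and 8 genes lower, and the other lists hold 4 calls or fewer in either direction.

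Further genes of the pathway were read from lists. Of 12 targets of BMP signalling, 10 were above FPKM 1 in the *Smad4* line on day 1 and all 10 were lower in KO cells, and on day 2 it was 8 of 9. Their median log2 ratio was −2.67 on day 1 and −2.91 on day 2, against −0.0045 and −0.0094 over all genes. Of all genes, 4.77% and 5.77% were called in *Smad4* KO on these days. *Id1*, a repressor of differentiation and immediate BMP target, was 2.14 in KO and 77.1 in WT cells on day 1. *Msx2* and *Hand1*, transcription factors induced by BMP, were 0.161 and 0.122 in KO cells on day 2, both above FPKM 3 in WT cells. Limma called none of these targets. In the F1G4 KO lines on day 3 the same list had 1 gene higher and 2 lower in each line, of 10 or 11 examined. *Cdx2* and *Msx1* were lower in all 3 lines. Of all genes, 16.4% (*Eomes* KO), 6.04% (*T* KO) and 11% (dKO) were called on day 3. On day 2 the list had 5 genes higher and 1 lower in *Eomes* KO, with a median log2 ratio of 0.74. It had 3 higher and 1 lower in both other lines. On that day 7.52%, 15.6% and 7.99% of all genes were called, in the same order of lines. *Cdx2* was then higher in all 3, at 3.65 in *Eomes* KO, 3.76 in *T* KO and 3.66 in dKO cells against 0.609 to 0.634 in WT cells.

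Other ligands, receptors, modulators and intracellular components had at most 3 calls per list in each KO comparison. *Gdf11*, a ligand bound by Follistatin, was higher on day 3 in *Eomes* KO (2.39 against 0.788), *T* KO (1.64 against 0.761) and dKO cells (2.54 against 0.784). *Htra1*, a secreted protease that restrains BMP and TGFβ signalling, was lower on day 3 in *Eomes* KO (1.47 against 4.16) and *T* KO cells (1.65 against 4.02). *Gdf11* lay below FPKM 1 in WT cells, and each KO value is 1 library. The WT pair of day 3 differed by over 2-fold in 21.8% of genes at FPKM 1 to 5. *Smad7* and *Smad6*, inhibitory Smads induced by the pathway, were lower in *Smad4* KO on day 1 (2.84 against 14.9, and 1.09 against 3.13).

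*Fst* also acts on activins, and 11 genes of the activin and Nodal branch were therefore listed. *Inhba*, which encodes the subunit of activin A, was at most 0.0856 over the WT time course. *Inhbb*, another activin gene of this list, was 9.21 in WT ES cells, 0.0388 on day 1 and 0.119 on day 3. *Nodal* stood at 30.8 on WT day 3. In *Smad4* KO cells 4 of 8 examined genes of this branch were lower on each day, among them *Nodal*, *Lefty2* and *Tdgf1*, and limma called 1 of them on day 2. In *Eomes* KO cells on day 3, 4 of 8 were lower and 1 was higher. It was 1 lower and 1 higher in *T* KO cells, and 0 and 1 in dKO cells. Of all genes, the fold rule called 4.77% and 5.77% in *Smad4* KO on days 1 and 2. On day 3 it called 16.4% in *Eomes* KO, 6.04% in *T* KO and 11% in dKO. The 1 call of 8 in dKO is near that share.

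The genes most like each member were found by the correlation of log2(FPKM + 0.1) over 14 conditions among 9284 genes. The conditions share WT libraries and stages, so these values are descriptions. *Fst* was most like *Rspo3* (r = 0.95), *Alox15* (0.913) and *Wnt5b* (0.878), and *Nog* most like *Wnt6* (0.952), *Ets1* (0.944) and *Flt1* (0.941). *Bmp4* was most like *Ntn1* (0.923), *Klf4* (0.889) and *Rad21* (0.887), and *Bmp7* most like *Smpd1* (0.973), *Angptl2* (0.971) and *1110032A03Rik* (0.969). *Bmpr1a* was most like *Setbp1* (0.962), *Cpt1b* (0.945) and *Nsmf* (0.942), and *Bmpr2* most like *Pdxdc1* (0.93), *Smap1* (0.917) and *Mbd1* (0.912).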

How the data were processed

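Strand-specific total RNA libraries made with ScriptSeq were sequenced paired-end. The authors trimmed reads with cutadapt 2.9, aligned them with HISAT2 2.1.0 to mm10 and computed the deposited FPKM values with Cuffdiff 2.2.1 on the RefSeq annotation, correcting for multi-mapped reads and sequence bias but not for effective length. Of 51 samples in the series, the 18 RNA samples were analysed here.

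Each table holds a value per gene and condition. Low values are whole multiples of the value of 1 fragment, so the number of libraries in a column and their depth could be read from them. In the 10 columns of KO cells and of the *Smad4* line, 86.7% to 87.8% of values under 200 fragments were whole within 0.02 fragments, as for 1 library, although the legends describe averages of 2 replicates. These libraries held the equivalent of 18100000 to 37400000 fragments and the F1G4 WT libraries 21800000 to 29000000. F1G4 WT columns average 2 libraries, which were solved for days 2 and 3 from 4 tables (90 genes unsolved), and for the ES state and day 1 only where low counts allowed a unique solution. Which replicate is which is not known, and no SD is given. Limits of 3 fragments cover counting error only, and the 95% intervals given are those of limma.

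Ratios were taken within a table without a pseudocount, by the rule of the study. Limma 3.58.1 (R 4.3.3) was run with a trend on log2(FPKM + 0.1) of 14 libraries with FPKM above 1 in at least 1 library (12477 genes), with Benjamini-Hochberg adjustment. It has 2 residual degrees of freedom plus 3.27 from all genes, and was chosen after seeing the data. No count test was run, as the values are FPKM. KO lines were not tested against each other because their tables were normalized separately. The steps were tested on simulated data. Ratios and figures were made in Python 3.11.15 (pandas 2.3.3, matplotlib 3.10.9).

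The 10 genes and all lists were chosen with earlier results of these data known. Named were all members, the targeted genes, called genes of each list (at most the 3 highest and 3 lowest per comparison), and the 3 genes most like each member above FPKM 1 among genes reaching FPKM 5. *Inhba*, *Nodal* on WT day 3 and single fibroblast markers were named after their values were seen. Marker lists of 7 cell types were summed. Endoderm markers summed to at most 7.5 FPKM, endothelial markers to at most 21.7, and trophoblast markers, which include *Hand1* and *Eomes*, to at most 154. Positions and promoter sequences are from RefSeq, GRCm38.p6, and *Bmp2*, *Bmp7*, *Nog* and *Fst* were not in the promoter table.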

Additional observations from a re-analysis of the deposited data

Results flagged for a closer look

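In several genes of the set, KO lines of the same day lay on opposite sides of both WT libraries. On day 2, 69.4% (*Eomes* KO), 79.1% (*T* KO) and 75% (dKO) of all genes lay outside both WT libraries. On day 3 it was 76.5%, 60.3% and 71.9%. The share of all genes with lines on opposite sides was not computed, so these cases are descriptions. The differences between the lines were not tested, since each line is 1 library in its own table. Expression values here are FPKM set on the scale of the time course.

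On day 2, *Fst* was 30.2 in *T* KO, above both WT libraries (16.9 and 21.5), and 8.82 in *Eomes* KO and 11.8 in dKO, below both. *Bmp7* was 2.39 in *T* KO, above both (1.14 and 1.90), and 1.01 in *Eomes* KO, below both. *Bmpr1a* was 44.9 in *T* KO and 35.6 in *Eomes* KO, above both (34.6 and 35.3), and 32.3 in dKO, below both, and the *Eomes* KO value exceeds the higher library by 1.01-fold. *Bmpr2* was 6.5 in *T* KO, above both (3.46 and 5.78), and 2.57 in dKO, below both.

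On day 3, *Nog* was 2.99 in dKO, above both WT libraries (0.905 and 1.99), and 0.703 in *T* KO, below both. *Bmpr2* was 10.2 in *Eomes* KO, above both (4.46 and 6.41), and 3.60 in *T* KO, below both.

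The *T* KO library of day 2 was above both WT libraries in each of the 4 genes of the set above FPKM 1, and 39% of all genes lay above both. In that comparison 15.6% of all genes were called by the fold rule (647 higher and 1128 lower), and limma called 1.51%, against 0.00801% and 0.016% in *Eomes* KO and dKO on the same day.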

How the results depend on the processing

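No called ratio of a BMP gene changed direction under any of the alternatives run. A pseudocount, another minimum or another threshold cannot reverse a ratio, however. Removing the minimum cannot undo a call between values above 0, so part of this result was fixed in advance. For the alternatives of the fold rule, the share of all genes called is not given. The counts of BMP genes called under them, given below, are therefore descriptions and no result about these genes. Without a minimum, genes resting on a few fragments are examined too. Of the values of the 22 calls under alternatives, leaving out *Nog* from the ES state to day 3, where a ratio to 0 has no value, 206 stayed past the threshold and 59 did not. Without a minimum FPKM, the number of genes called became 6 from the ES state to day 1 and from day 1 to day 2, 5 from day 2 to day 3, 3 in *Smad4* KO on day 2 and *Eomes* KO on day 2, 2 in *T* KO and dKO on day 2, and 5 in all 3 lines on day 3. With FPKM above 5 it was 1 from day 1 to day 2 and from day 2 to day 3, 2 from the ES state to day 3 and 1 in each line on day 3. A pseudocount of 1 left 1 from day 1 to day 2 and 1 in each line on day 3. A log2 ratio beyond 2 left 0 from day 1 to day 2, in *Smad4* KO on day 1 and in *Eomes* KO on day 2, and 1 in each line on day 3. Rescaled to TPM, it was 5 from day 2 to day 3, 7 from the ES state to day 3, 2 in *Smad4* KO on day 2, 5 in *Eomes* KO and *T* KO on day 3 and 2 in dKO on day 2. The median log2 ratio was taken over genes above FPKM 1 in both columns. With TPM it was −0.22 and 0.23 in *Eomes* KO on days 2 and 3, against −0.0076 and −0.059 without it. In *T* KO on day 2 it was 0.11 against −0.0094. In dKO on days 2 and 3 it was −0.40 and −0.14 against 0.0036 and −0.033. With TPM, 72% of all calls in *Eomes* KO on day 3 were higher against 45% without it, 52% against 36.5% in *T* KO on day 2, and 13% against 43.6% in dKO on day 2.

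Limma, with either minimum, called 0 from day 2 to day 3, in *Smad4* KO on both days and in *Eomes* KO on day 2. It called 1, *Fst*, in *Eomes* KO and dKO on day 3, and in *T* KO on day 3 it called 1 with a minimum of FPKM 1 and 0 with 0.1. At an unadjusted p under 0.05 and a minimum of FPKM 1, 3 genes passed from day 2 to day 3 and 1, *Fst*, in each KO comparison. With each WT library left out in turn, the number called ranged from 0 to 1 in *Eomes* KO, in *T* KO and in dKO on day 2. *Fst* on day 3 was called in every KO line under every alternative of the fold rule. No paired analysis was possible because the columns carry no replicate numbers, and leaving out replicates by their labels was not run for the same reason. The cause of these changes was not tested beyond the construction of each alternative.

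At this depth *Bmp2*, *Grem1* and *Bmper* rest on at most 96 fragments per library, and the fragments of *Chrd* could not be solved. The WT pairs differed by over 2-fold in 6.9% (day 2) and 9.9% (day 3) of genes above FPKM 1. At FPKM 1 to 5, where *Bmp4*, *Bmp7* and *Nog* lay on WT day 3, it was 15% (day 2) and 21.8% (day 3). Above FPKM 5 it was 3.45% and 5.05%. The shares of all genes called, given beside the counts of BMP genes, were not matched for level.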
